A study of Mus musculus with 27 samples.

Results

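Mouse splenic B cells that had been activated through CD40 for 24 h were compared directly between 2 cytokines, IL-21 and IL-4. The comparison uses 6 of the 27 polyadenylated RNA libraries of the series, chosen by the stimulation and the time in their labels: 3 with IL-21 and 3 with IL-4. All were wild-type primary B cells, described as naive, cultured with the agonistic anti-CD40 antibody HM40-3 at 1 µg/mL. One group also received IL-21 at 50 ng/mL, and the group it was set against received IL-4 at 12.5 ng/mL. Further libraries, 3 in each group, gave the levels with both cytokines and with anti-CD40 alone at 24 h, and with IL-21 or IL-4 at 6 h. The age and sex of the mice are not given in the labels, nor do they say if the replicates are separate mice or separate cultures. Each p-value of the main fit then reflects variation among replicate libraries, pooled over the 9 groups of the series, and that variation may be technical. Such a p-value does not measure the spread of the 6 compared libraries alone. The study's question was what IL-21 does to B cells directly, in different stimulation settings.

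IL-21 and IL-4 are both made by T follicular helper cells, and their receptors share the common gamma chain encoded by Il2rg. IL-21 signals mainly through the kinases JAK1 and JAK3 to STAT3 and is known for its part in germinal centres, plasma cell formation and the T-bet-expressing B cell state. IL-4 signals mainly to STAT6 and is known for inducing the low-affinity IgE receptor CD23, MHC class II and class switching to IgG1 and IgE. SOCS proteins and CISH are made in response to STAT signalling and damp it.

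The values are gene levels in TPM, a unit that corrects for transcript length and is scaled within each library, so a level is a share of the RNA and not a number of molecules per cell. Differences below are of log2(TPM + 1), IL-21 minus IL-4, ± standard error, from a limma fit of 12147 genes in all 27 libraries, and calls were made below an adjusted p of 0.05. In bulk RNA, fewer cells of a type and less RNA per cell cannot be told apart.

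Among the leading genes at 24 h, the largest rise was that of Socs3 (6.02) and the largest fall that of Cish (-4.69). Both encode feedback inhibitors of cytokine signalling. The chemokine gene Ccl22 (-4.44) had the largest fall within a chosen panel of genes. Socs2 (-4.60), outside that panel, fell more than Ccl22, and its promoter is not shown. The promoters of Socs3, Cish and Ccl22 are shown because STAT dimers bind a palindrome whose spacer differs between family members. The sequences run from 250 bases before to 50 bases after a gene start given by RefSeq, build GRCm38.p6. That start can differ from the GENCODE loci printed further below, and the Socs3 and Cish windows lie within those loci. Socs3 lies at chr11:117969317-117969616 on the minus strand, Cish at chr9:107296409-107296708 on the plus strand and Ccl22 at chr8:94745434-94745733 on the plus strand. Capitals mark TTCNNNGAA.
Socs3: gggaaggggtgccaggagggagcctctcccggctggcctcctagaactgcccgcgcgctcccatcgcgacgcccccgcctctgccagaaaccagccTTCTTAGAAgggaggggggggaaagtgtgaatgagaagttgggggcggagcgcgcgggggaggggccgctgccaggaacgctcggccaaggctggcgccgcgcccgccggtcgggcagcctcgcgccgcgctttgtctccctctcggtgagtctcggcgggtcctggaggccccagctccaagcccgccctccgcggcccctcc
Cish: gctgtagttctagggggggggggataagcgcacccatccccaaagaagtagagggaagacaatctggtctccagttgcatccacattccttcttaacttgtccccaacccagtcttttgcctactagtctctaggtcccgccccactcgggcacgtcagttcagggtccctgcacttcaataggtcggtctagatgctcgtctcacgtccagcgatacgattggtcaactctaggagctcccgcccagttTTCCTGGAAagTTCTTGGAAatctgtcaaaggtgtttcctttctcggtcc
Ccl22: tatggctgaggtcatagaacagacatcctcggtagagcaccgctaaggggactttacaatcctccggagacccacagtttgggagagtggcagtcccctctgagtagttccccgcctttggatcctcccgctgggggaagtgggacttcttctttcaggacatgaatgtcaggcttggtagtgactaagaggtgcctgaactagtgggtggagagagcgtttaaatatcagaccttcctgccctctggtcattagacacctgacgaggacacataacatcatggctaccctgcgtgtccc
TTCNNNGAA and the form with a spacer of 4 bases, TTCNNNNGAA, are each their own reverse complement, so 1 scan covered both strands. The Socs3 window held TTCTTAGAA at bases 97 to 105. The Cish window held TTCCTGGAA at bases 251 to 259 and TTCTTGGAA at bases 262 to 270, at and just after the RefSeq start. The Ccl22 window held neither form. Of all 32851 promoter windows of this length, 8.3% held TTCNNNGAA and 6.95% held TTCNNNNGAA. Among the 10 leading rises reported here, 9 genes had windows in the table, and those of Ccr6, Sbno2 and Socs3 held TTCNNNGAA while none held the longer form. Among the 12 leading falls, 7 had windows, Ccl17 and Cish with TTCNNNGAA and Ccl17 and Fcer2a with TTCNNNNGAA. These are matches of letters and not measured binding.

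The libraries were first checked for what they hold. Listed TPM summed to between 766384 and 825365 per library, and read depth is unknown because TPM keeps none. The B cell markers Cd79a (442 with IL-21, 357 with IL-4) and Ms4a1 (261 with IL-21, 780 with IL-4) were abundant in both groups as mean TPM. Markers of other cells were low. Summed over each list, macrophage and monocyte markers reached 1.46 to 7.04 TPM in the IL-21 libraries and 2.18 to 2.42 in the IL-4 libraries, dendritic cell markers 3.22 to 4.49 with IL-21 and 2.35 to 4.89 with IL-4, and NK markers 1.93 to 2.36 with IL-21 and 0.201 to 1.22 with IL-4. Of 9 neutrophil markers, 7 were listed at 0 in all 6 libraries, and the sums were at most 0.274 with IL-21 and 0.0307 with IL-4. Erythroid and platelet markers summed to 30 to 47.9 TPM with IL-21 and 14.6 to 23.2 with IL-4. T cell markers summed to 22.2 to 27.3 TPM with IL-21 and 27.6 to 78.6 TPM with IL-4. Within that list Thy1 was at 0.139 ± 0.158 TPM with IL-21 and 24.8 ± 18.7 TPM with IL-4 (SD, n = 3 each), whereas the defining T cell genes Cd3e (0.811 with IL-21, 0.0291 with IL-4) and Cd3g (0.246 with IL-21, 0 with IL-4) were under 1 TPM. Lck, a kinase that B cells can also express, made up most of the sum with IL-21 (19.7 TPM with IL-21, 18.4 TPM with IL-4). Of the list's further members, Trbc1 (0.0681 with IL-21, 0.382 with IL-4) and Cd8b1 (0.0255 with IL-21, 0.236 with IL-4) had the higher mean with IL-4. So did Trbc2 (0.0491 with IL-21, 0.08 with IL-4) and Cd4 (0.0152 with IL-21, 0.0225 with IL-4). Trac (1.86 with IL-21, 0.401 with IL-4) and Cd5 (0.683 with IL-21, 0.247 with IL-4) had the higher mean with IL-21. The same held for Cd3d (0.32 with IL-21, 0.0512 with IL-4) and Cd8a (0.00592 with IL-21, 0.00252 with IL-4). No 2 libraries were identical.

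As listed, the comparison was lopsided, and this bears on every gene group below. Of the 12147 genes tested, 4952 (40.8%) were called higher with IL-21 and 670 (5.52%) lower, so 88.1% of the 5622 calls were higher, and the median difference over all genes was 0.55. Groups that did not overlap at all gave the same skew, with all IL-21 libraries above all IL-4 libraries for 29.1% of genes and below for 5.14%. The make-up of the libraries differed too. Ribosomal protein genes took 17 to 22.3% of the listed TPM with IL-21 and 21.3 to 27.3% with IL-4. Mitochondrially encoded genes took 6.56 to 8.14% with IL-21 and 7.89 to 11.6% with IL-4. IL-4 replicate 1, at 21.3% and 7.89%, lay within both IL-21 ranges. Without mitochondrial, ribosomal protein and pseudogene rows, the median difference was 0.46 and 80.5% of the calls were higher. By transcript length, the median difference was 0.36, 0.52, 0.68 and 0.83 from the shortest to the longest quartile of genes. Among single libraries, IL-4 replicates 2 and 3 lay lowest for long transcripts, with median deviations of -0.54 and -0.77 in the longest quartile, while IL-4 replicate 1 lay at 0.12 and the 3 IL-21 libraries at 0.4, 0.66 and 0.13. IL-4 replicate 1 thus stood apart from the other two of its group. The part of these features in the results was not tested.

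The counts of each gene list at 24 h are therefore given as listed and after rescaling every library by the median of its ratios to the gene means, which brought the median difference to -0.0017. After rescaling, 2154 genes (17.8% of 12087) were higher with IL-21 and 2461 (20.4%) lower. Of the genes called as listed, 2152 rises and 669 falls were called in the same direction again, and 18 of the listed rises were called lower. Removing the trend with transcript length, an alternative chosen after seeing the data, left 16.4% of genes higher and 17.1% lower. A core of 719 higher and 130 lower genes was called as listed, after rescaling and in a fit of the 6 libraries alone. In what follows, "rose" and "fell" mean called as listed unless rescaling is named, and a member whose call was lost after rescaling is given with that p. Where a list below has 0 falls at 24 h as listed, 0 of its members fell at an unadjusted p below 0.05 either; cholesterol synthesis and mitochondrially encoded genes, which had 0 rises, had 2 such members between them. The marker lists of other cells are given apart. Since 88.1% of all calls at 24 h were rises as listed, more rises than falls in a list is the background.

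**Figure D1:**
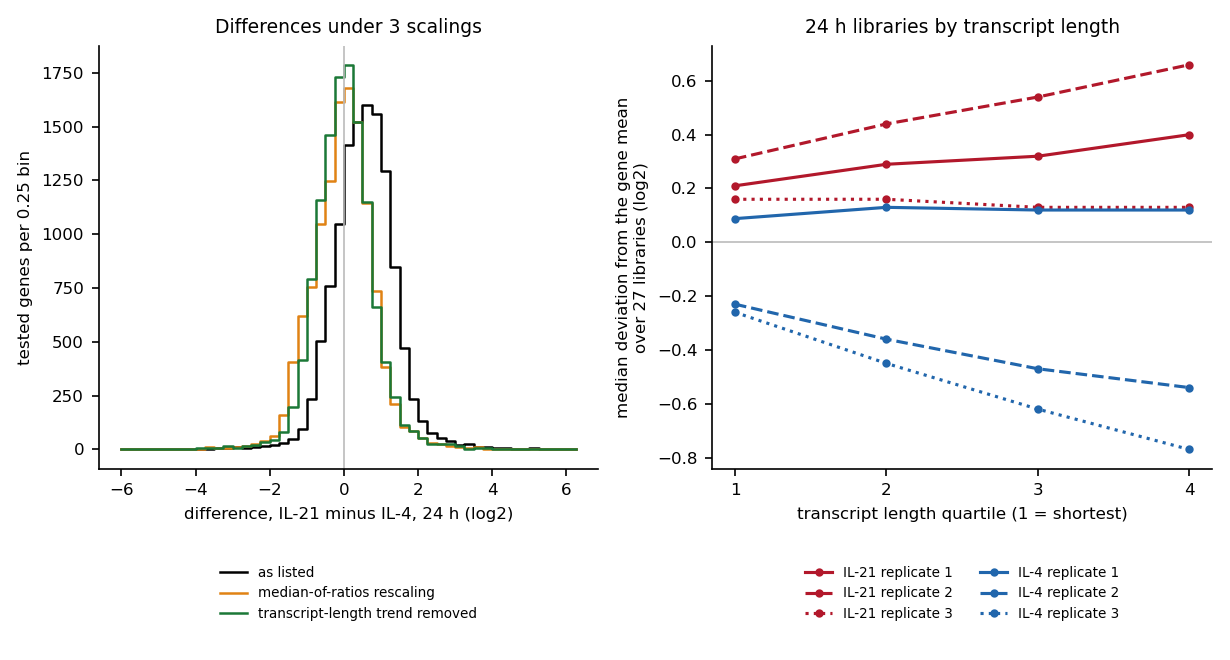
The left panel counts genes by their IL-21 minus IL-4 difference in log2(TPM + 1) at 24 h, as listed, after median-of-ratios rescaling and after removing the trend with transcript length; the median moved to -0.0017 after rescaling, against 0.55 as listed. The right panel plots, for each of the 6 libraries, the median deviation of genes from their mean by quartile of transcript length; IL-4 replicate 3 reached -0.77 and IL-21 replicate 2 reached 0.66 in the longest quartile.

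The 22 leading genes reported here, 10 rises and 12 falls, did not overlap between the groups and were called in each of 15 alternatives. With IL-21 the leaders were a STAT3 feedback inhibitor, the transcription factor T-bet, the chemokine receptor CCR6 and the enzyme CD38. With IL-4 they were the STAT feedback genes Cish and Socs2, chemokines for CCR4, and the IgE and IgG1 constant regions. They were chosen as called and without overlap, so these counts describe the choice; 40.8% of all genes were called higher and 5.52% lower.

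Socs3, the feedback inhibitor made in response to STAT3, had 707, 748 and 503 TPM with IL-21 against 14.4, 7.45 and 6.47 TPM with IL-4. The gene (ENSMUSG00000053113, chr11:117966079-117970047, minus strand, GRCm38) rose by 6.02 ± 0.27 (limma adjusted p = 3.02e-13), and all 3 IL-21 libraries lay far above all 3 with IL-4. Tbx21 (ENSMUSG00000001444, chr11:97098071-97115331, minus strand) encodes T-bet, a T-box factor that directs switching to IgG2 isotypes. It had 42.3, 44.9 and 33.6 TPM with IL-21 and 0.26, 0.0226 and 0.0863 TPM with IL-4, a difference of 5.20 ± 0.21 (limma adjusted p = 5.52e-14). T-bet RNA was thus near 0 in each IL-4 library and readily measured in each IL-21 library.

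The leading rises also included surface proteins. Ccr6, the receptor for the chemokine CCL20 (ENSMUSG00000040899, chr17:8236043-8257141, plus strand), had 458, 551 and 320 TPM with IL-21 and 20.7, 11.4 and 8.04 TPM with IL-4 (5.01 ± 0.39, limma adjusted p = 1.97e-09). Cd38, an ectoenzyme that consumes NAD and is high on mouse follicular and memory B cells (ENSMUSG00000029084, chr5:43868553-43912375, plus strand), had 107, 105 and 99.5 TPM with IL-21 and 3.4, 2.09 and 1.88 TPM with IL-4 (4.94 ± 0.20, limma adjusted p = 4.54e-14). The IL-21 libraries agreed closely on Cd38, and the groups were wide apart. Ifitm1, an interferon-inducible membrane protein, had 24.2, 19.5 and 36.2 TPM with IL-21 and was listed at 0 in all 3 libraries with IL-4. Reads of Ifitm genes may be split among near-identical copies, so that level is uncertain.

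The other leading rises encode proteins of varied kinds. Jun, a subunit of the AP-1 factor, had 194, 216 and 142 TPM with IL-21 and 15.6, 5.77 and 4.16 TPM with IL-4 (4.45 ± 0.29). Its groups did not overlap. The protease inhibitor Serpinb1a had 165, 157 and 239 TPM with IL-21 and 3.44, 6.26 and 6.54 TPM with IL-4. Sbno2, a transcriptional regulator, had 219, 275 and 130 TPM with IL-21 and 17.7, 6.61 and 5.11 TPM with IL-4. Hs3st1, a heparan sulfate sulfotransferase, had 70.9, 71.1 and 48.9 TPM with IL-21 and 1.53, 1.01 and 0.377 TPM with IL-4, and Ier5l had 42.3, 36.8 and 26.5 TPM with IL-21 and 0.121, 0.0104 and 0 TPM with IL-4. Each of these 4 genes was separated between the groups without overlap.

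Among the leading falls, Cish (ENSMUSG00000032578, chr9:107296026-107302784, plus strand), a SOCS-family inhibitor that is a classic target of STAT5, had 1.01, 1.03 and 0.374 TPM with IL-21 and 88.2, 37.1 and 27.7 TPM with IL-4. It fell by 4.69 on the log2 scale (SE 0.31, limma adjusted p = 9.13e-11). Socs2, a second member of that family, had 0.638, 2.28 and 0.342 TPM with IL-21 and 42.8, 38.1 and 59.2 TPM with IL-4 (-4.60 ± 0.46, limma adjusted p = 8.45e-08). So Cish and Socs2 were high with IL-4 and low with IL-21, while Socs3, of the same family, was high with IL-21. Ccl22 (ENSMUSG00000031779, chr8:94745590-94751699, plus strand), a ligand of CCR4 that draws helper T cells, had 5.99, 5.3 and 3.2 TPM with IL-21 and 309, 96.6 and 61.5 TPM with IL-4 (-4.44 ± 0.36, limma adjusted p = 2.86e-09). Its relative Ccl17 was listed at 0 in all 3 IL-21 libraries and at 8.43, 13.9 and 14 TPM with IL-4. Here the IL-4 libraries differed among themselves, replicate 1 being highest for Ccl22 and lowest for Ccl17, yet both genes kept clear of the IL-21 libraries.

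Immunoglobulin and surface genes were also among the leading falls. Ighe, the IgE constant region (ENSMUSG00000087642, chr12:113269260-113273248, minus strand), had 0.0571, 0.131 and 0 TPM with IL-21 and 43.1, 14.6 and 11.2 TPM with IL-4 (-4.26 ± 0.30, limma adjusted p = 3.82e-10). Ighg1 (ENSMUSG00000076614, chr12:113325240-113330523, minus strand) had 8.95, 7.13 and 2.23 TPM with IL-21 and 250, 96.9 and 62 TPM with IL-4 (-4.18 ± 0.42, limma adjusted p = 1.11e-07). Gene totals do not separate germline transcripts, which precede switching, from transcripts of switched cells. Fcer2a, which encodes CD23, had 66.9, 97.4 and 50.7 TPM with IL-21 and 1676, 720 and 461 TPM with IL-4 (-3.55 ± 0.58, limma adjusted p = 6.73e-05). Slamf7, a SLAM-family receptor, had 6.63, 7.99 and 6.7 TPM with IL-21 and 150, 150 and 136 TPM with IL-4 (-4.18 ± 0.17, limma adjusted p = 5.95e-14), with no overlap between the groups. Thy1, a surface glycoprotein best known from mouse T cells, had 0.321, 0.0328 and 0.0635 TPM with IL-21 and 46.4, 13.4 and 14.6 TPM with IL-4. In these same IL-4 libraries the T cell receptor complex genes Cd3d (0.0512 TPM), Cd3e (0.0291 TPM) and Cd3g (0 TPM) were at or near 0 as means. Other T cell markers there averaged 18.4 (Lck), 0.401 (Trac), 0.382 (Trbc1), 0.247 (Cd5), 0.236 (Cd8b1), 0.08 (Trbc2), 0.0225 (Cd4) and 0.00252 TPM (Cd8a). The source of the Thy1 RNA was not tested.

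Of the remaining falls, Nfil3, a basic leucine zipper factor, had 6.97, 6.94 and 4.82 TPM with IL-21 and 168, 66.2 and 48.3 TPM with IL-4. Marcks, an actin-binding substrate of protein kinase C, had 7.92, 9.09 and 7.02 TPM with IL-21 and 161, 89 and 63.3 TPM with IL-4. The adaptor Lurap1 had 0.218, 0.176 and 0.221 TPM with IL-21 and 24, 22.8 and 20 TPM with IL-4. None of these overlapped between the groups.

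**Figure D2:**
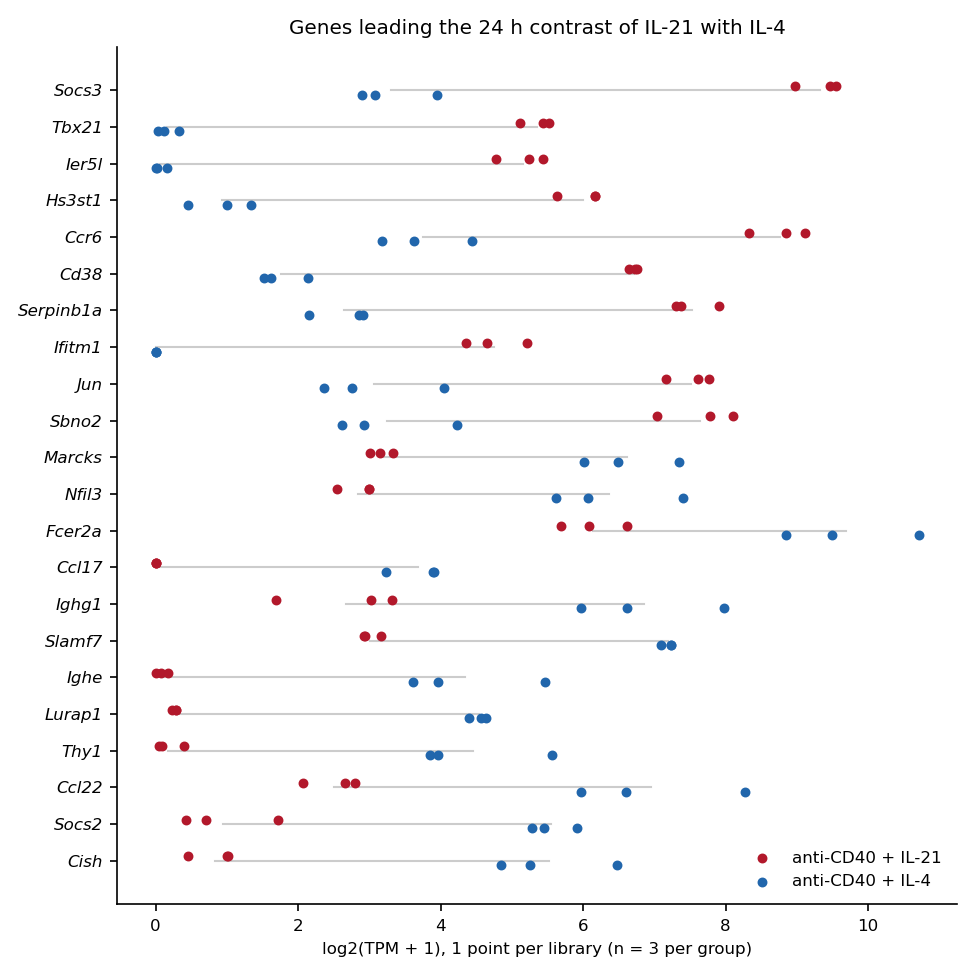
Each dot is 1 library of IL-21 (red) or IL-4 (blue) at 24 h, on a log2(TPM + 1) axis, for 10 leading rises and 12 leading falls. No gene overlaps between the groups; Socs3 spans 503 to 748 TPM with IL-21 and 6.47 to 14.4 TPM with IL-4.

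Cytokine signalling genes as a whole were then examined by role. Here and below, lists and members were chosen with earlier results of these data known, so the counts are not independent support. Lists also hold genes that lead this contrast, such as Socs3 and Cish. Of 12 tested genes known as IL-21 or STAT3 responses, 10 rose and 1, Nfil3, fell, and the median difference was 2.07 against 0.55 over all genes; after rescaling the counts were 9 and 2 with a median of 1.57. Bcl3, an atypical inhibitor of NF-kB, had 201, 214 and 133 TPM with IL-21 and 41.3, 12.3 and 8.71 TPM with IL-4 (3.35 ± 0.35, limma adjusted p = 1.62e-07). Prdm1, which encodes Blimp-1, the plasma cell regulator, had 2.4, 2.62 and 1.55 TPM with IL-21 and 0.269, 0 and 0 TPM with IL-4. Il10, the anti-inflammatory cytokine, had 2.41, 1.57 and 1.61 TPM with IL-21 and 0.349, 0.575 and 0.657 TPM with IL-4 (0.90, limma adjusted p = 0.00116, and 0.0508 after rescaling). Batf, a partner of IRF4, was the member that did not pass as listed, with 101, 95 and 89.4 TPM under IL-21 and 108, 104 and 97 TPM under IL-4 (-0.12, limma adjusted p = 0.424); it was lower after rescaling (-0.86, adjusted p = 0.000634).

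Of 11 tested IL-4 or STAT6 response genes, 8 fell with IL-21 and 1 rose as listed, while 10 were lower and 0 higher after rescaling, with medians of -3.55 and -4.05. The listed rise was Ciita, the master regulator of MHC class II, at 87.2, 115 and 57.6 TPM with IL-21 and 87, 38.3 and 25.7 TPM with IL-4; its difference of 0.90 (limma adjusted p = 0.0254) was 0.16 after rescaling (adjusted p = 0.515). Il4i1, a secreted amino acid oxidase, averaged 326 TPM with IL-21 and 898 TPM with IL-4 (-1.40, limma adjusted p = 0.00979). Il4ra, the IL-4 receptor alpha chain, had 86.1, 91.9 and 57.2 TPM with IL-21 and 178, 91.9 and 79.4 TPM with IL-4, overlapping ranges that did not pass as listed (limma adjusted p = 0.373) and were lower after rescaling (-1.25, adjusted p = 0.0172).

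Several receptors and kinases of these pathways rose. Among 17 receptor chains and JAK kinases, 9 rose and 1 fell as listed, against 6 and 6 after rescaling, with medians of 0.68 and 0.19. Il21r itself had 500, 545 and 342 TPM with IL-21 and 144, 63 and 45.3 TPM with IL-4 (2.59, limma adjusted p = 9.18e-06). The kinases Jak1 (307, 385 and 219 TPM with IL-21; 96.3, 45.1 and 26.6 TPM with IL-4) and Jak3 (52, 74.8 and 39.7 TPM with IL-21; 10.6, 4.63 and 4 TPM with IL-4) rose on both scales. Il2ra, the high-affinity IL-2 receptor chain, rose by 2.64, and Il9r, the IL-9 receptor, fell by 1.87. The shared chain Il2rg rose by 1.85 (limma adjusted p = 0.00693), with adjusted p = 0.0565 after rescaling. Among 7 STAT genes 4 rose as listed, and after rescaling 1 was higher and 1 lower. Stat3 had 157, 199 and 89.1 TPM with IL-21 and 41.4, 15.6 and 11.5 TPM with IL-4 (2.78 ± 0.34, limma adjusted p = 1.93e-06), and Stat4 was the one lower after rescaling (-0.71, adjusted p = 0.0321). Stat2 (1.05) and Stat6 (1.15) rose as listed, with adjusted p-values of 0.132 for Stat2 and 0.144 for Stat6 after rescaling.

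Of 13 feedback regulators, 9 rose and 2, Cish and Socs2, fell as listed, and 7 were higher and 3 lower after rescaling, with medians of 1.11 and 0.51. Socs1, which averaged 13.3 TPM with IL-21 and 22.4 TPM with IL-4, was the further member lower after rescaling (-1.25, adjusted p = 0.000218). The phosphatases Ptpn1 and Ptpn6, which dephosphorylate cytokine and antigen receptor signalling proteins, averaged 559 and 911 TPM with IL-21 and 62.9 and 241 TPM with IL-4, differences of 3.24 and 2.09 that held on both scales.

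Immunoglobulin constant genes split by isotype. Of 12, 5 rose and 4 fell as listed, and 2 were higher and 6 lower after rescaling, so the median turned to -0.31 after rescaling, against 0.26 as listed. Ighg2b had 64.6, 74.7 and 61.8 TPM with IL-21 and 7.49, 5.15 and 4.69 TPM with IL-4 (3.35 ± 0.31, limma adjusted p = 2.67e-08). Ighg2c had 17.2, 20.8 and 13.1 TPM with IL-21 and 2.83, 2.03 and 1.87 TPM with IL-4 (2.47 ± 0.37, limma adjusted p = 2.75e-05). These IgG2 genes were thus higher in each IL-21 library, whereas Ighg1 and Ighe were higher in each IL-4 library. Reads of IgG constant genes can be split between similar copies, and the levels of Ighg2b and Ighg2c are uncertain to that extent. Ighm had 3229, 3483 and 2317 TPM with IL-21 and 2345, 928 and 603 TPM with IL-4 (1.44, limma adjusted p = 0.00415, and 0.0537 after rescaling). The lambda light chain genes Iglc1 and Iglc3, which also share sequence, fell by 1.36 and 1.55.

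The germinal centre list was led by Bcl6. Bcl6, the germinal centre repressor, had 29.6, 36.9 and 23.7 TPM with IL-21 and 5.84, 2.29 and 1.35 TPM with IL-4 (3.03 ± 0.25, limma adjusted p = 5.2e-09). Its partner in that list, Mef2b, an activator of Bcl6, had 81.2, 87.6 and 56.2 TPM with IL-21 and 23.9, 10 and 5.03 TPM with IL-4 (2.66). Of 10 tested germinal centre genes, 5 rose and 0 fell as listed, and 5 were higher and 1, Fas, lower after rescaling (-1.10, adjusted p = 0.0058), with medians of 1.02 and 0.44. Pou2af1, the B cell coactivator OBF-1, averaged 467 TPM with IL-21 and 179 TPM with IL-4 (1.56).

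Among 11 tested plasma cell genes, 6 rose and 2 fell as listed, against 3 higher and 5 lower after rescaling, with medians of 0.88 and 0.44. Besides Prdm1, Jchain, which joins polymeric antibodies, had 14.2, 14.3 and 45.2 TPM with IL-21 and 2.44, 5.57 and 6.56 TPM with IL-4 (1.99). Mzb1, an endoplasmic reticulum cofactor of antibody assembly, moved the other way, with 136, 111 and 167 TPM under IL-21 and 338, 447 and 483 TPM under IL-4 (-1.61, limma adjusted p = 1.02e-08). Xbp1, which drives the secretory programme, had 4.84, 9.75 and 4.43 TPM with IL-21 and 10.7, 7.34 and 10.3 TPM with IL-4 (-0.57, limma adjusted p = 0.209; -1.23 after rescaling, adjusted p = 0.00607). Irf4 had 30.6, 38.7 and 18.7 TPM with IL-21 and 58.4, 22.4 and 14.7 TPM with IL-4, a difference of 0.06 as listed (limma adjusted p = 0.901) and of -0.66 after rescaling (adjusted p = 0.0107).

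Of 16 mature B cell identity genes, 10 rose and 3 fell as listed, and 8 were higher and 3 lower after rescaling, with medians of 1.41 and 0.66. Bach2, a repressor that holds back plasma cell formation, had 41.8, 59.2 and 31.5 TPM with IL-21 and 7.71, 3.25 and 2.16 TPM with IL-4 (3.16 ± 0.28). Foxo1 (2.47), the inhibitory receptor Cd22 (2.44) and the signalling adaptor Bank1 (2.26) rose with it on both scales. Ms4a1, which encodes CD20, had 246, 210 and 327 TPM with IL-21 and 506, 873 and 962 TPM with IL-4 (-1.55), and Cd79b, a chain of the antigen receptor, had 301, 262 and 253 TPM with IL-21 and 741, 571 and 476 TPM with IL-4 (-1.11). The members that fell were these and Fcer2a. Pax5, the B lineage factor, had 48.5, 68.3 and 30.7 TPM with IL-21 and 55.6, 19.2 and 12.3 TPM with IL-4 (0.95, limma adjusted p = 0.0445, and 0.531 after rescaling).

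Most genes associated with the T-bet-expressing B cell state rose. Of 10, 9 rose and 1 fell on both scales, with medians of 3.37 as listed and 2.65 after rescaling. This list too was chosen with earlier results of these data known, so these counts are not independent support. Its member Tbx21 also counts in the IL-21 and STAT3 list. Fcrl5, an Fc receptor-like protein, had 92.6, 107 and 73.5 TPM with IL-21 and 8.33, 5.99 and 5.36 TPM with IL-4 (3.61 ± 0.32, limma adjusted p = 1.22e-08). Zbtb32 had 21.8, 25.1 and 18 TPM with IL-21 and 1.66, 1.01 and 0.405 TPM with IL-4 (3.52), and Zeb2, a repressor linked to that state, had 29.9, 47.6 and 18.8 TPM with IL-21 and 4.06, 1.44 and 0.809 TPM with IL-4 (3.46). The integrins Itgax (CD11c) and Itgam (CD11b) averaged 2.86 and 4.05 TPM with IL-21 and 0.0679 and 0.0354 TPM with IL-4. The exception was Tlr7, the endosomal receptor for single-stranded RNA, at 2.13, 3.56 and 3.42 TPM with IL-21 and 11.3, 13 and 19.5 TPM with IL-4 (-1.94, limma adjusted p = 0.00303). Both integrins are also myeloid markers, and the macrophage list had 0 of 6 tested members called by limma (1 at an unadjusted p below 0.05).

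The immediate early and NF-kB lists are given together. Of 15 tested AP-1 and immediate early factors 9 rose and 0 fell, and of 13 tested after rescaling 7 were higher and 2 lower, with medians of 0.83 and 0.65. Junb averaged 447 TPM with IL-21 and 76.8 TPM with IL-4 (2.66), and Egr1, a growth factor-induced zinc finger protein, had 26, 28.5 and 14.6 TPM with IL-21 and 6.69, 1.95 and 1.67 TPM with IL-4 (2.56). Of 16 CD40 and NF-kB response genes, 9 rose and 1 fell as listed, but 6 were higher and 5 lower after rescaling, with medians of 0.98 and 0.25. Nfkbie and Nfkbia, inhibitors of NF-kB, rose by 1.75 and 1.65. In the fit of the 6 libraries alone, 0 of these 16 CD40 and NF-kB genes were called in either direction.

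Few antigen presentation genes were called at 24 h. Of 11 MHC class II genes 1, Ciita, rose as listed, and 0 were higher and 3 lower after rescaling, with medians of 0.29 and -0.46. H2-Ab1, an abundant class II chain, averaged 3932 TPM with IL-21 and 3375 TPM with IL-4 (0.29, limma adjusted p = 0.696). Of 10 MHC class I genes, 1 rose and 1 fell as listed, and 0 were higher and 4 lower after rescaling, with medians of 0.38 and -0.37. B2m, the class I light chain, had 1322, 1195 and 1252 TPM with IL-21 and 2332, 2017 and 1969 TPM with IL-4 (-0.74, limma adjusted p = 0.00101), and Tapbp rose by 1.40 as listed with adjusted p = 0.263 after rescaling. Of 19 tested interferon-stimulated genes, 3 rose and 2 fell as listed and 1 was higher and 3 lower after rescaling (medians 0.16 and -0.24), with Irf8, a lineage factor, rising by 1.60 and the GTPase Ifi47 falling by 1.14.

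Costimulatory ligands were divided. Of 14 tested, 6 rose and 3 fell as listed, against 4 higher and 6 lower after rescaling, with medians of 0.61 and 0.04. Cd86, a ligand of CD28, had 28.4, 23.5 and 38.8 TPM with IL-21 and 4.31, 6.52 and 6.03 TPM with IL-4 (2.22 ± 0.21, limma adjusted p = 4.9e-08). Icosl, the ligand of ICOS, had 36.8, 50.2 and 27.4 TPM with IL-21 and 9.13, 4.01 and 2.35 TPM with IL-4 (2.78), and Tnfsf4, which encodes OX40L, averaged 4.36 TPM with IL-21 and 0.413 TPM with IL-4 (1.93). Cd83 had 330, 328 and 361 TPM with IL-21 and 704, 784 and 866 TPM with IL-4 (-1.20), and Cd48 had 106, 88.6 and 153 TPM with IL-21 and 224, 425 and 476 TPM with IL-4 (-1.65). The groups were apart for each of these 5 genes.

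Of 13 tested chemokines and cytokines, 8 rose and 2, the CCR4 ligands, fell as listed, and 6 were higher and 3 lower after rescaling, with medians of 0.97 and 0.56. Ltb, lymphotoxin beta, had 439, 418 and 404 TPM with IL-21 and 107, 91.2 and 79.5 TPM with IL-4 (2.18), and Il12a, a subunit of IL-12 and IL-35, had 13.3, 20.2 and 16.1 TPM with IL-21 and 1.65, 1.37 and 1.32 TPM with IL-4 (2.83). Among 13 tested trafficking genes, 5 rose and 0 fell as listed, against 4 higher and 1 lower after rescaling, with medians of 0.62 and 0.04. Next to Ccr6, S1pr1, the receptor for lymphatic exit, rose by 1.30.

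Regulators of cell death differed as well. Bcl2l11, the gene of the death-promoting protein BIM, had 15.3, 19.8 and 15.9 TPM with IL-21 and 4.75, 2.54 and 1.36 TPM with IL-4 (2.30, limma adjusted p = 6.9e-08). Bcl2l1, which encodes the survival protein BCL-XL, had 4.97, 4.38 and 4.45 TPM with IL-21 and 30.7, 12 and 12.3 TPM with IL-4 (-1.66, limma adjusted p = 0.000313). Bcl2a1b and Bcl2a1d, survival genes of the A1 family, had 170, 160 and 265 TPM and 135, 121 and 217 TPM with IL-21, against 883, 1691 and 1923 TPM and 673, 1215 and 1472 TPM with IL-4 (-2.87 and -2.79). These A1 copies are near identical, so how reads divide among them is uncertain. Of 11 anti-apoptotic genes, 1 rose and 6 fell as listed and 0 were higher and 9 lower after rescaling, with medians of -0.55 and -1.30. Of 9 tested pro-apoptotic genes, 5 rose and 0 fell as listed, but 2 were higher and 2 lower after rescaling, with medians of 0.80 and 0.08. Pmaip1, which encodes NOXA, rose by 1.41 on top of Bcl2l11. Among 12 tested p53 targets, 7 rose and 3 fell as listed and 3 were higher and 4 lower after rescaling, with medians of 0.95 and 0.33, Btg2 rising by 2.05 and Sesn1 falling by 0.78.

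Cell cycle genes were listed by phase, and the lists were not tested against each other. Of 18 tested G2 and mitosis genes, 15 rose and 0 fell, and of 17 tested after rescaling 10 were higher and 0 lower, with medians of 1.41 and 0.85. Plk1, a mitotic kinase, had 39.3, 50.3 and 34.8 TPM with IL-21 and 17, 4.3 and 2.42 TPM with IL-4 (2.61 ± 0.41, limma adjusted p = 5.37e-05). Mki67, the Ki-67 antigen, had 58.6, 92.4 and 38.9 TPM with IL-21 and 27.5, 9.06 and 6.92 TPM with IL-4 (2.20), again without overlap. Of 22 S phase genes, 11 rose and 2 fell as listed, but 2 were higher and 7 lower after rescaling, so the median turned to -0.16 after rescaling, against 0.56 as listed. Uhrf1, which recruits the maintenance methyltransferase, rose on both scales (2.66), and Tyms, thymidylate synthase, fell on both (-0.99). Of 14 tested G1 cyclins and inhibitors, 7 rose and 0 fell as listed, and 4 were higher and 2 lower after rescaling, with medians of 0.56 and 0.04. Cdkn2d, an INK4-family inhibitor of G1 kinases, had 112, 114 and 112 TPM with IL-21 and 6.63, 4.74 and 2.93 TPM with IL-4 (4.35 ± 0.23, limma adjusted p = 4.49e-12).

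In the growth and metabolic lists, the counts differed widely between the scales. Of 18 MYC targets and ribosome biogenesis genes, 2 rose and 2 fell as listed, against 0 higher and 9 lower after rescaling, with medians of 0.14 and -0.60. Npm1, a nucleolar chaperone, had 2518, 2205 and 3753 TPM with IL-21 and 3667, 5939 and 7920 TPM with IL-4 (-1.02), ranges that overlapped, and Nop58, a nucleolar RNA-binding protein, fell by 0.84. Myc itself differed by 0.14 as listed (limma adjusted p = 0.761) and by -0.59 after rescaling (adjusted p = 0.0266). Of 19 cholesterol synthesis genes, 0 rose and 2 fell as listed and 0 were higher and 9 lower after rescaling, with medians of 0.08 and -0.60. Idi1, isopentenyl diphosphate isomerase, had 93.2, 96.8 and 107 TPM with IL-21 and 282, 343 and 456 TPM with IL-4 (-1.83, limma adjusted p = 1.19e-08), and Cyp51 fell by 0.88. Of 17 endoplasmic reticulum chaperones, 1 rose and 2 fell as listed and 0 were higher and 9 lower after rescaling (medians 0.07 and -0.67). Of 15 tested glycolysis genes, 6 rose and 0 fell as listed and 1, Pkm, was higher and 1, Tpi1, lower after rescaling (medians 0.80 and 0.16). Of 12 quiescence genes, 7 rose and 0 fell as listed, and 5 were higher and 2 lower after rescaling (medians 0.77 and 0.13). Of 13 mitochondrially encoded genes, 0 rose and 1, mt-Nd1, fell as listed (-0.60), and 7 were lower after rescaling, with medians of -0.45 and -1.21.

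**Figure D3:**
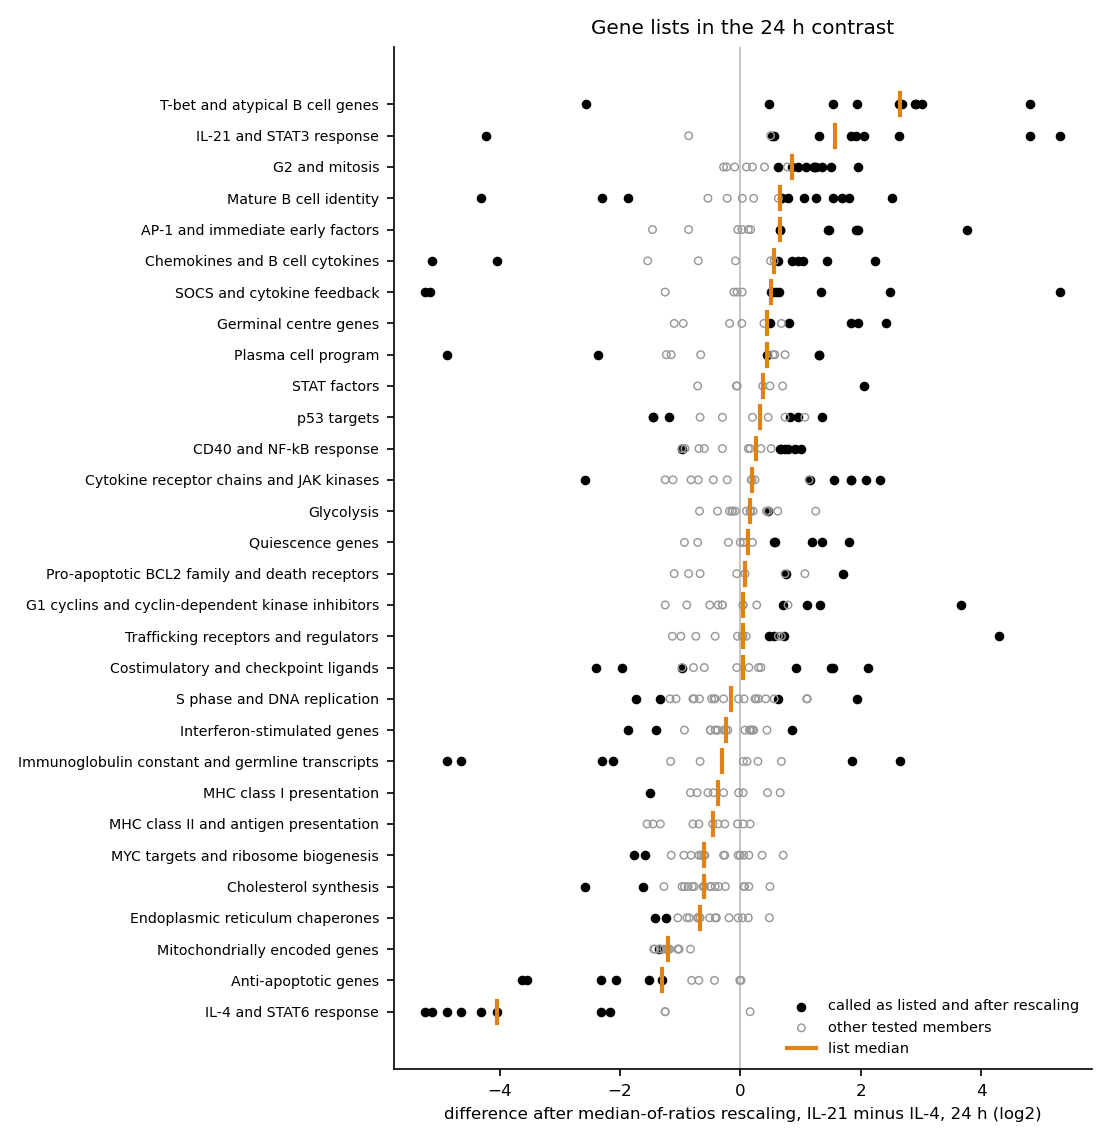
Each dot is a gene of 1 of 30 lists, placed at its IL-21 minus IL-4 difference in log2(TPM + 1) after rescaling; filled dots were called both as listed and after rescaling, and the orange mark is the median of the list. The IL-4 and STAT6 list lies lowest with a median of -4.05, and the T-bet list has a median of 2.65.

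Calls among markers of other cells stand beside 40.8% of all tested genes called higher and 5.52% called lower as listed. The part of these markers in the results above was not tested. Of 4 tested T cell markers, Trac (1.86 TPM with IL-21, 0.401 TPM with IL-4) and Cd5 (0.683 TPM with IL-21, 0.247 TPM with IL-4) rose and Thy1 fell; Cd5 had adjusted p = 0.128 after rescaling. The NK list had 1 tested gene, Prf1, which rose (0.69; adjusted p = 0.0848 after rescaling), the macrophage and dendritic cell lists had 0 called by limma of 6 and of 2 tested (1 and 0 at an unadjusted p below 0.05), and no neutrophil marker was abundant enough to test. Of 9 erythroid and platelet markers 1, Hbb-bt, rose (9.61, 10.2 and 16.2 TPM with IL-21, 1.85, 2.22 and 1.01 TPM with IL-4), and its reads may be shared with its near-identical copy Hbb-bs.

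Levels with both cytokines and with anti-CD40 alone were set against those with each cytokine, as listed and without rescaling. These comparisons share libraries with the direct one, so their values are given side by side. The median-of-ratios factors ran from 1.13 to 1.49 with IL-21 and from 0.588 to 1.1 with IL-4. They ran from 1.1 to 1.17 with both cytokines and from 0.93 to 1.23 with anti-CD40 alone, so the differences below carry such shifts. Socs3 averaged 653 ± 131 TPM with IL-21, 435 ± 20.9 TPM with both, 9.44 ± 4.33 TPM with IL-4 and 1.15 ± 0.608 TPM with anti-CD40 alone (SD, n = 3 each). Both groups given IL-21 thus had higher means than the groups without it. Tbx21 averaged 40.3 ± 5.89 TPM with IL-21, 6.4 ± 0.91 TPM with both, 0.123 ± 0.123 TPM with IL-4 and 0.409 ± 0.196 TPM with anti-CD40 alone, so that adding IL-4 to IL-21 gave a lower level (-2.48, limma adjusted p = 2.05e-08). Ccr6 averaged 443 TPM with IL-21, 73.5 with both, 13.4 with IL-4 and 184 with anti-CD40 alone. Cd38 averaged 104 TPM with IL-21, 21.5 with both, 2.46 with IL-4 and 17.1 with anti-CD40 alone. Both genes had their lowest mean with IL-4, and a lower mean with both cytokines than with IL-21.

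For Bcl6 the distance between the cytokines lay on the IL-4 side. It averaged 30.1 ± 6.59 TPM with IL-21, 19.9 ± 0.174 TPM with both, 3.16 ± 2.37 TPM with IL-4 and 22.7 ± 4.42 TPM with anti-CD40 alone. IL-21 differed from anti-CD40 alone by 0.38 (limma adjusted p = 0.287) and IL-4 by -2.64 (limma adjusted p = 8.15e-08). Fcer2a lay on the IL-21 side, at 71.6 TPM with IL-21, 149 with both, 952 with IL-4 and 882 with anti-CD40 alone, with differences from anti-CD40 alone of -3.64 with IL-21 (limma adjusted p = 6.85e-05) and -0.09 with IL-4 (limma adjusted p = 0.933). Slamf7 averaged 7.11 TPM with IL-21, 16.2 with both, 145 with IL-4 and 76.4 with anti-CD40 alone. Ccl22 averaged 4.83 TPM with IL-21, 8.54 with both, 156 with IL-4 and 55.9 with anti-CD40 alone. With IL-21 they were lower than with anti-CD40 alone, Slamf7 by 3.26 and Ccl22 by 3.29, and their means with both cytokines were below those with IL-4.

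The IL-4-induced feedback and switch genes behaved in several ways when IL-21 was added. Cish averaged 0.806 TPM with IL-21, 111 TPM with both, 51 TPM with IL-4 and 0.187 TPM with anti-CD40 alone. Ighg1 averaged 6.1 TPM with IL-21, 202 with both, 136 with IL-4 and 2.08 with anti-CD40 alone, both cytokines differing from IL-4 by 0.81 (limma adjusted p = 0.16). Ighe averaged 0.0627 TPM with IL-21, 1.98 with both, 23 with IL-4 and 0.146 with anti-CD40 alone, both cytokines lying below IL-4 (-2.79, limma adjusted p = 6.28e-07). Against IL-4 alone, then, Ighe passed the test and Ighg1 did not. Nfil3 averaged 6.24 TPM with IL-21, 248 with both, 94.3 with IL-4 and 0.469 with anti-CD40 alone. Pim1, a survival kinase, averaged 122 TPM with IL-21, 253 with both, 56.7 with IL-4 and 28.4 with anti-CD40 alone. Batf averaged 95.1 TPM with IL-21, 171 with both, 103 with IL-4 and 30.7 with anti-CD40 alone. Cish, Ighg1, Nfil3, Pim1 and Batf each had their highest mean with both cytokines.

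**Figure D4:**
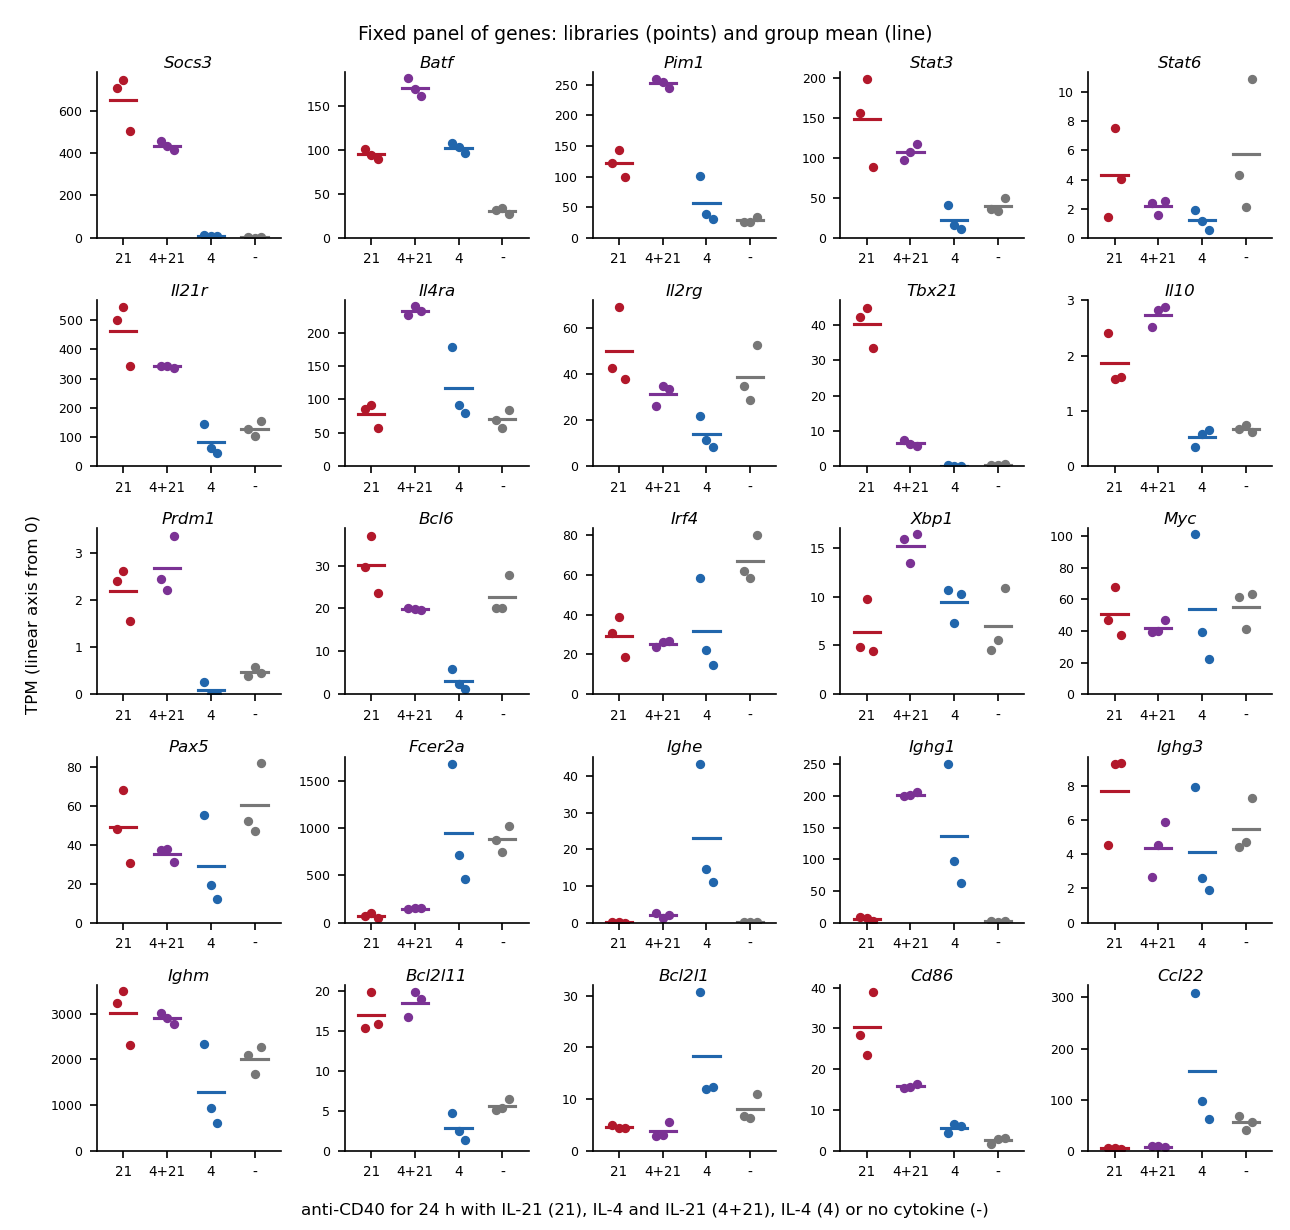
TPM of 25 genes at 24 h, 1 dot per library, with groups in the order IL-21, both cytokines, IL-4 and anti-CD40 alone. Socs3 averages 653 TPM with IL-21 and 435 TPM with both, while Ighe averages 23 TPM with IL-4 and 1.98 TPM with both.

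The direct comparison was also made at 6 h. There 681 genes (5.61%) were higher with IL-21 and 338 (2.78%) lower, and the median difference was 0.07, so 66.8% of the calls were higher, against 88.1% at 24 h. After rescaling, 686 genes (5.68%) were higher at 6 h and 539 (4.46%) lower. By quartile of transcript length the 6 h medians were 0.05, 0.08, 0.07 and 0.11. The difference between cytokines itself differed between 24 h and 6 h for 15.4% of genes, 13.2% moving upward and 2.13% downward, with a median change of 0.45. The shift of 0.55 at 24 h is part of this change. After rescaling the split was close to even, with 985 genes (8.15%) moving upward, 1019 (8.43%) downward and a median change of -0.031, and without the length trend it was 981 upward and 844 downward. Values at 6 h, changes between times and the levels with both cytokines or anti-CD40 alone are as listed unless rescaling is named.

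The signalling lists were already apart at 6 h. Of the tested IL-21 and STAT3 genes 9 were higher and 1 lower, and of the IL-4 and STAT6 genes 0 were higher and 10 lower. After rescaling the counts were 10 higher and 1 lower for the IL-21 and STAT3 genes, and again 0 higher and 10 lower for the IL-4 and STAT6 genes. Among the genes leading at 6 h, Tnfrsf9, which encodes the costimulatory receptor 4-1BB, had 47.5, 42.1 and 35.1 TPM with IL-21 and 1.24, 2.31 and 0.864 TPM with IL-4 (4.14). Gem, a small GTPase, had 154, 146 and 151 TPM with IL-21 and 11.5, 11 and 10.8 TPM with IL-4 (3.65). Fcer2a had 44.2, 20.7 and 13.7 TPM with IL-21 and 1300, 492 and 305 TPM with IL-4 (-4.58), Slc2a6, a hexose transporter family member, fell by 4.16, and Akap2, an anchoring protein, fell by 4.09. Lad1 had 0.797, 0.795 and 0.682 TPM with IL-21 and 41.6, 34.2 and 41.3 TPM with IL-4. These genes were chosen as called and without overlap between the groups, so their separation describes the choice. The share of all genes without overlap was not counted at 6 h.

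In other lists, part of the members had a difference that moved between the times. Of 19 cholesterol synthesis genes, 0 were higher and 11 lower with IL-21 at 6 h, and for 9 the difference moved upward by 24 h. After rescaling 13 were lower at 6 h, and 4 moved upward and 1 downward. On that scale 9 were lower and 0 higher at 24 h. Of 11 MHC class II genes 5 were lower at 6 h, and 4 moved upward (5 and 3 after rescaling); H2-DMa, which loads class II, differed by -3.06 at 6 h and by -0.80 at 24 h. G2 and mitosis genes had 0 called by limma in either direction at 6 h (2 higher and 0 lower at an unadjusted p below 0.05), and 10 moved upward (6 after rescaling). Of the mature B cell genes 2 were higher and 5 lower at 6 h, and 9 moved upward; after rescaling 3 were higher and 7 lower, and 7 moved upward. Cr2, the complement receptor CD21, had 3.93, 4.23 and 3.98 TPM with IL-21 and 45.2, 43.2 and 23.3 TPM with IL-4 at 6 h (-2.86), and 20.2, 30.9 and 20.2 TPM with IL-21 and 12.8, 5.03 and 3.76 TPM with IL-4 at 24 h (1.73). It was thus lower with IL-21 at the first time and higher at the second.

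As listed, Batf and Socs2 were called at 1 of the 2 times, with a change between times for each. Batf had 334, 280 and 323 TPM with IL-21 and 107, 96.1 and 114 TPM with IL-4 at 6 h (1.55), a difference that did not pass at 24 h as listed (change -1.67, limma adjusted p = 5.69e-07). Socs2 had 2.09, 5.2 and 0.675 TPM with IL-21 and 2.37, 2 and 1.71 TPM with IL-4 at 6 h (0.08, limma adjusted p = 0.981), overlapping groups that were far apart at 24 h (change -4.68, limma adjusted p = 4.56e-05). Bcl2l11 was already apart at 6 h, with 71.1, 57.4 and 78.3 TPM under IL-21 and 9.44, 9.63 and 9.59 TPM under IL-4 (2.72, limma adjusted p = 1.53e-08).

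**Figure D5:**
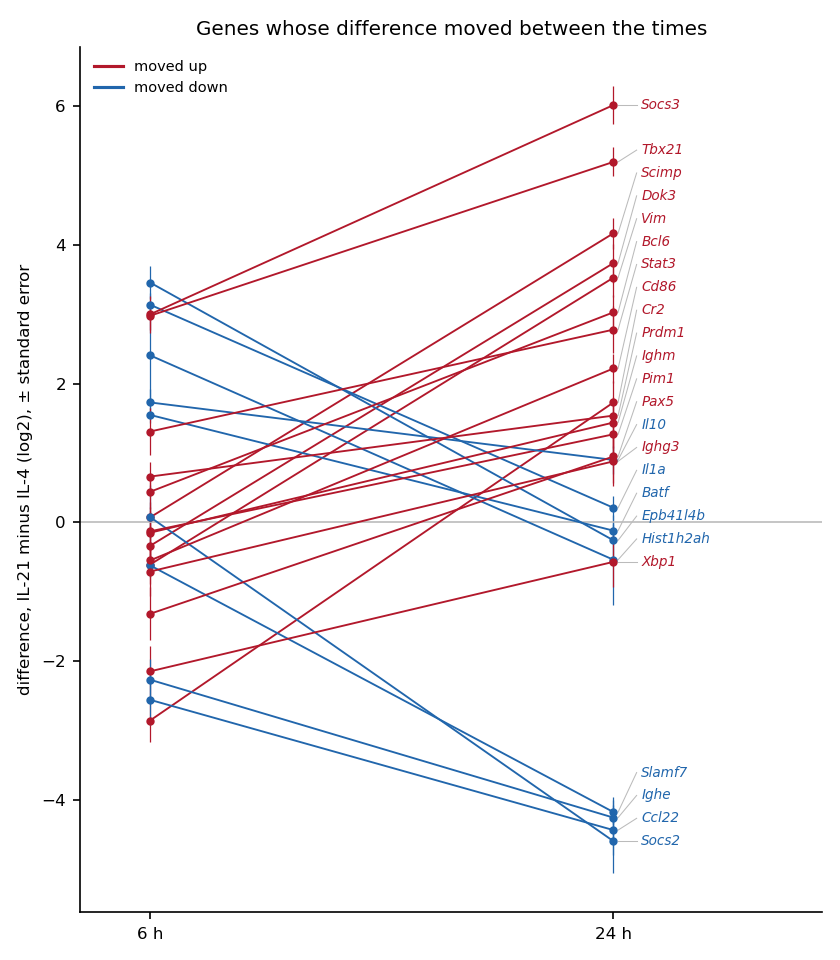
The IL-21 minus IL-4 difference in log2(TPM + 1) at 6 h and at 24 h, ± standard error from the limma fit, for 24 named genes whose difference changed between the times, red where it moved upward and blue where it moved downward. Cr2 moved upward by 4.59 and Socs2 downward, to -4.60 at 24 h.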

How the data were processed

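RNA-seq of stimulated mouse B cells was quantified by the authors with Salmon 1.9.0 on GRCm38 (mm10), per the submitters' processing notes. The deposited table holds TPM for 35604 genes in 27 libraries; the unit was read from the table and its values, which keep no read depth, so precision rests on the 3 libraries a group. The 12147 genes that reached 1 TPM in 3 or more libraries were fitted as log2(TPM + 1), which understates differences between low values, in R 4.3.3 with limma 3.58.1 (1 mean per group, 9 groups, variance trend, 18 residual degrees of freedom, two-sided, Benjamini-Hochberg over all tested genes, called below 0.05). The method was tested on simulated data with 200 changed genes. It recovered 47% of changes of 1 log2 unit and 89% of changes of 2, and called 16 unchanged genes. The simulation drew noise for each gene separately and put no overall shift or length trend between the groups, so it does not test those features. Groups come from the labels.

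Named genes are the 12 largest called rises and falls at 24 h without overlap whose higher group averaged 5 TPM or more. A panel of 25 genes and up to 4 called members per list in each direction were added. So were the largest effects between times and, by the same criteria as at 24 h, those at 6 h. Il4i1, Itgax, Itgam, H2-Ab1, H2-DMa, Socs1, Stat4, Fas, Tpi1, Trac, Lck, Trbc1, Trbc2, Cd4, Cd8a, Cd8b1, Cd79a and the Cd3 genes were named from the lists after their values were seen. Some genes the rule names are not reported here and were not replaced; counts over lists and all genes include them. Members and lists were chosen with earlier results of these data known. Lists can share members, and Il21r and Tbx21 each count in more than 1 list. Gene symbols and loci follow GENCODE M21; promoters come from RefSeq. Replicates sharing a number at 6 h deviated together (correlations 0.353, 0.202 and 0.173). Those at 24 h were mixed (0.16, -0.258 and 0.41), and pairs with different numbers ran from -0.479 to 0.417. These values do not settle whether the 24 h libraries are paired, and the main fit used no pairing.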

Additional observations from a re-analysis of the deposited data

Results flagged for a closer look

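For 24 named genes the difference between IL-21 and IL-4 itself differed between 24 h and 6 h, by limma's test of that difference over all genes; the values are changes in log2(TPM + 1), 24 h minus 6 h, with adjusted p. Moving upward were Cr2 (4.59, adjusted p = 4.61e-07), Vim, an intermediate filament (4.14, adjusted p = 5.44e-07), Scimp, a membrane adaptor (4.10, adjusted p = 1.42e-08), Dok3, a signalling adaptor (4.08, adjusted p = 5.69e-07), Socs3 (3.03, adjusted p = 1.88e-05), Cd86 (2.77, adjusted p = 2.45e-06), Bcl6 (2.58, adjusted p = 4.44e-05), Pax5 (2.27, adjusted p = 0.00741) and Tbx21 (2.22, adjusted p = 3.37e-05). Smaller upward changes were those of Xbp1 (1.59, adjusted p = 0.0415), Ighg3 (1.59, adjusted p = 0.0347), Ighm (1.59, adjusted p = 0.045), Stat3 (1.47, adjusted p = 0.0427), Pim1 (1.40, adjusted p = 0.0267) and Prdm1 (0.88, adjusted p = 0.0496). Moving downward were Socs2 (-4.68, adjusted p = 4.56e-05), Epb41l4b (-3.72, adjusted p = 2.64e-07), Slamf7 (-3.55, adjusted p = 6.3e-09), Hist1h2ah (-2.96, adjusted p = 0.0338), Il1a, the cytokine IL-1 alpha (-2.92, adjusted p = 8.23e-08), Ighe (-1.99, adjusted p = 0.00415), Ccl22 (-1.88, adjusted p = 0.0168), Batf (-1.67, adjusted p = 5.69e-07) and Il10 (-0.83, adjusted p = 0.0468).

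Epb41l4b had 19.8, 13.3 and 19.4 TPM with IL-21 and 0.816, 0.693 and 0.485 TPM with IL-4 at 6 h, and at most 1 TPM in each library of both groups at 24 h. Il1a had 8.11, 8.52 and 8.89 TPM with IL-21 and 0.0407, 0.0794 and 0.121 TPM with IL-4 at 6 h. Histone genes such as Hist1h2ah have near-identical copies and transcripts that mostly lack poly(A), so that value is uncertain. After rescaling, the changes of Xbp1 (0.97, adjusted p = 0.157), Ighm (0.93, adjusted p = 0.103), Prdm1 (0.69, adjusted p = 0.0939), Ighg3 (1.08, adjusted p = 0.0892) and Stat3 (0.83, adjusted p = 0.0577) no longer passed limma's test, and the other 19 did, in the same direction. The median change over all genes was 0.45, and changes of that size cannot be told apart from the shift of the 24 h libraries.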

How the results depend on the processing

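At 24 h the 5622 calls became 4615 after rescaling, 4066 without the length trend (chosen after seeing the data), 952 in a fit of the compared groups alone and 5360, 80.5% higher, without mitochondrial, ribosomal protein and pseudogene rows. Leaving out 1 library at a time gave 3123 (without IL-4 replicate 3) to 7104 (without IL-4 replicate 1), with 3719 without IL-4 replicate 2 and 3751 at the lowest without an IL-21 library. The 1019 calls at 6 h became 2814 without a filter and 583 at 5 TPM, and 724 to 914 with a library left out. The 1867 changes between times became 380 in the compared groups alone and 826 (without IL-4 24 h replicate 3) to 4995 (without IL-4 24 h replicate 1) with a library left out. With the replicate block, calls were 6056 at 24 h, 1124 at 6 h and 2444 between times; among the named genes, Slc2a6 gained a call at 24 h (-0.94) and no other call changed. Directions turned for Irf4 (-0.66 rescaled, -0.77 without the length trend), Myc (-0.59 rescaled), Odc1 (-0.037 rescaled), Xiap (-0.15), Cd5 (-0.15) and Zbtb46 (-0.55, these last without the length trend). Of 158 named genes, 125 kept direction and call after rescaling, 132 without the length trend, 95 in the fit of the compared groups alone, 131 without IL-4 replicate 3 and 155 without IL-4 replicate 1, where Myc gained a call (0.72) and Manf (-0.47) and Gbp4 (-0.51) lost theirs. The fit of the compared groups alone also called fewer members of many lists at 24 h. It called 0 of 16 CD40 and NF-kB genes, 0 of 15 glycolysis genes and 0 of 18 MYC targets. It called 1 rise among 22 S phase genes, 1 among 12 p53 targets, and 1 rise and 2 falls among 11 plasma cell genes. The T-bet list kept 8 rises and 1 fall of 10, and the IL-4 and STAT6 list 7 falls of 11. The causes were not tested.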
